A study of Mus musculus with 6 samples.

Results

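The aminoacyl-tRNA synthetases were followed in RET cells, a mouse melanoma line whose label gives the strain as C57BL\6. They were chosen by gene symbol, a letter for the amino acid followed by 'ars' for the cytosolic enzymes (with Eprs, Farsa, Farsb and Mars1) and by 'ars2' for the mitochondrial ones. Of 22180 named genes, 34 were members, 18 cytosolic and 16 mitochondrial, each represented by 1 array cluster. Where a gene had several, the brightest on average was kept, which is the measured value used in the choice. 3 cultures carried a non-targeting shRNA (controls) and 3 carried Angpt2 shRNA-1, the only hairpin against Angpt2 among these samples (silenced cells). All 6 were seeded at equal cell number and grown for 24 h in high-glucose DMEM with serum and non-essential amino acids. The labels call the 3 cultures of a group biological replicates. Sample titles name the controls RET GFP and the silenced cells RET SH-1. Whether a GFP construct differed between the groups was not tested. Effects of Angpt2 loss and of this 1 hairpin or set of cells cannot be told apart. Values are the authors' normalized intensities on Affymetrix Mouse Gene 2.0 ST arrays, and differences are given on the log2 scale.

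Each synthetase joins 1 amino acid to its matching tRNAs, the step that fixes the genetic code during translation. The cytosolic enzymes charge the tRNAs read by cytosolic ribosomes, and several of them sit in a multisynthetase complex held together by scaffold proteins. The mitochondrial enzymes are also encoded in the nucleus but act on the tRNAs of the mitochondrial genome. Glycyl- and lysyl-tRNA synthetase serve both compartments from 1 gene each (Gars and Kars). The bifunctional Eprs charges tRNAs for glutamate and proline. Many cytosolic synthetase genes are textbook targets of ATF4, the transcription factor of the integrated stress response, which cells raise when amino acids run short or the endoplasmic reticulum is stressed.

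ATF4, paired with proteins of the C/EBP family, binds composite elements with the core TGATGNAA. This core was searched on both strands of RefSeq promoter windows of 300 bases (GRCm38.p6), which run from 250 bases before to 50 after an annotated gene start. Windows were present for 25 of the 34 members, 11 cytosolic and 14 mitochondrial. The core occurred in 4 of the 11 cytosolic genes with a window (Gars, Iars, Tars and Yars) and in 0 of the 14 mitochondrial ones. It occurred in 3.97% of all 32851 windows, which belong to 27025 genes. Members are counted by gene and this background by window, so the shares are not strictly alike. All 4 belong to the 11 measured cytosolic genes listed as known ATF4 targets, of which 7 had a window. The 4 stretches below are those of the cytosolic genes with a match. All 4 genes had their highest value on control replicate 1. Eprs, Mars1 and Sars, with windows that lack the core, did too. Each runs from 150 bases before the annotated start to 20 bases after it, 5′ to 3′ on the gene's strand, with the match in capitals.
Gars: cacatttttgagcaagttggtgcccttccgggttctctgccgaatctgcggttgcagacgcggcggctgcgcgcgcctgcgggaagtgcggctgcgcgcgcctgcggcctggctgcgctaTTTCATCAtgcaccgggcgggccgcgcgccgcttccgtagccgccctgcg
Iars: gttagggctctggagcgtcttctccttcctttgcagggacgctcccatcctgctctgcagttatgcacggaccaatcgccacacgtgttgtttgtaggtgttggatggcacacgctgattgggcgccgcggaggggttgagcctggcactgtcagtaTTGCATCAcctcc
Tars: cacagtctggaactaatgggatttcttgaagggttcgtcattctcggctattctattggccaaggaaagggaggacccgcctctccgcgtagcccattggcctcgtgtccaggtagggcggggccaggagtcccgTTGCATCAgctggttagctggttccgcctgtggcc
Yars: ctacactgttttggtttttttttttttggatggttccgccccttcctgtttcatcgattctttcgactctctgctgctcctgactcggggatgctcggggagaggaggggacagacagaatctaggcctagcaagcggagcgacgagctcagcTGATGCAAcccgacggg
They lie at chr6:55037851-55038020 (plus strand) for Gars, chr13:49681980-49682149 (plus strand) for Iars, chr15:11399639-11399808 (minus strand) for Tars and chr4:129189753-129189922 (plus strand) for Yars. The match begins 30 bases before the start in Gars and 15 before it in Tars, and at transcribed base 8 in Iars and 4 in Yars. On the gene's strand it reads as the core itself in Yars and as its reverse complement in the other 3. A match describes these letters and is not a measured binding site.

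Angpt2 was lower on every silenced array than on any control array, with intensities of 195, 372 and 326 in control cultures 1, 2 and 3 and 100.2, 122 and 122 in silenced cultures 1, 2 and 3. Its log2 fold change, silenced relative to control, was -1.33 (SE 0.21), with limma adjusted p = 1.00 over all genes and 0.046 with the replicate number as a block. Without control replicate 1 the log2 fold change of Angpt2 was -1.61 (SE 0.12). No gene passed a limma adjusted p of 0.05 (0% called in each direction), against 338 higher (1.52%) and 497 lower (2.24%) at an unadjusted p under 0.05. Melanocyte genes (Mitf, Tyr, Tyrp1, Dct, Pmel, Mlana and Sox10) had intensities from 1387 to 9651, and 11 markers of lymphoid, myeloid, endothelial and fibroblast cells from 47.3 to 270.4. On control replicate 1, 5 of the 7 melanocyte genes had their highest value, against 25.8% of all genes. The tyrosinase gene Tyr was 1.66-fold above the other 5 arrays (2694 against 1460.1 to 1804). Sox10 was at 1.23-fold, and the remaining melanocyte genes ran from 0.99-fold (Mlana) to 1.11-fold (Mitf). The part of these differences in the synthetase values was not tested. Array medians lay between 74.5 and 76.2. Control replicate 1 stood apart from the other 5 cultures in the integrated stress genes and in many of the results below. Fold changes of the classes are therefore given with and without it.

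By class medians, cytosolic synthetase transcripts were high in 1 culture, control replicate 1, and mitochondrial synthetase transcripts were not. The median deviation of the 18 cytosolic genes from each gene's own mean over the 6 arrays was 0.40 on control replicate 1 and between -0.15 and 0.01 on the other 5 arrays. For the 16 mitochondrial genes it was 0.04 on control replicate 1 and between -0.01 and 0.04 on the others. Over all genes the array medians of this deviation ran from -0.01 to 0.02. Control replicate 1 had the highest value of the 6 arrays for 14 of 18 cytosolic and 5 of 16 mitochondrial genes, against 25.8% of all genes. Control replicate 2 was the highest array for 0 cytosolic and 2 mitochondrial genes, against 21.4% of all genes. Control replicate 1 was at least 1.5-fold above the mean of the other 5 arrays for 6 cytosolic genes and 0 mitochondrial ones, against 1.19% of all genes. These are values of 1 culture and carry no test. Whether all its cells or a fraction of them held more of these RNAs cannot be told apart. The classes also differed in brightness. Geometric gene means over the 6 arrays ran from 264 to 3885 for cytosolic and from 110 to 595 for mitochondrial members. The part of brightness in the contrast between the classes was not tested.

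**Figure D1:**
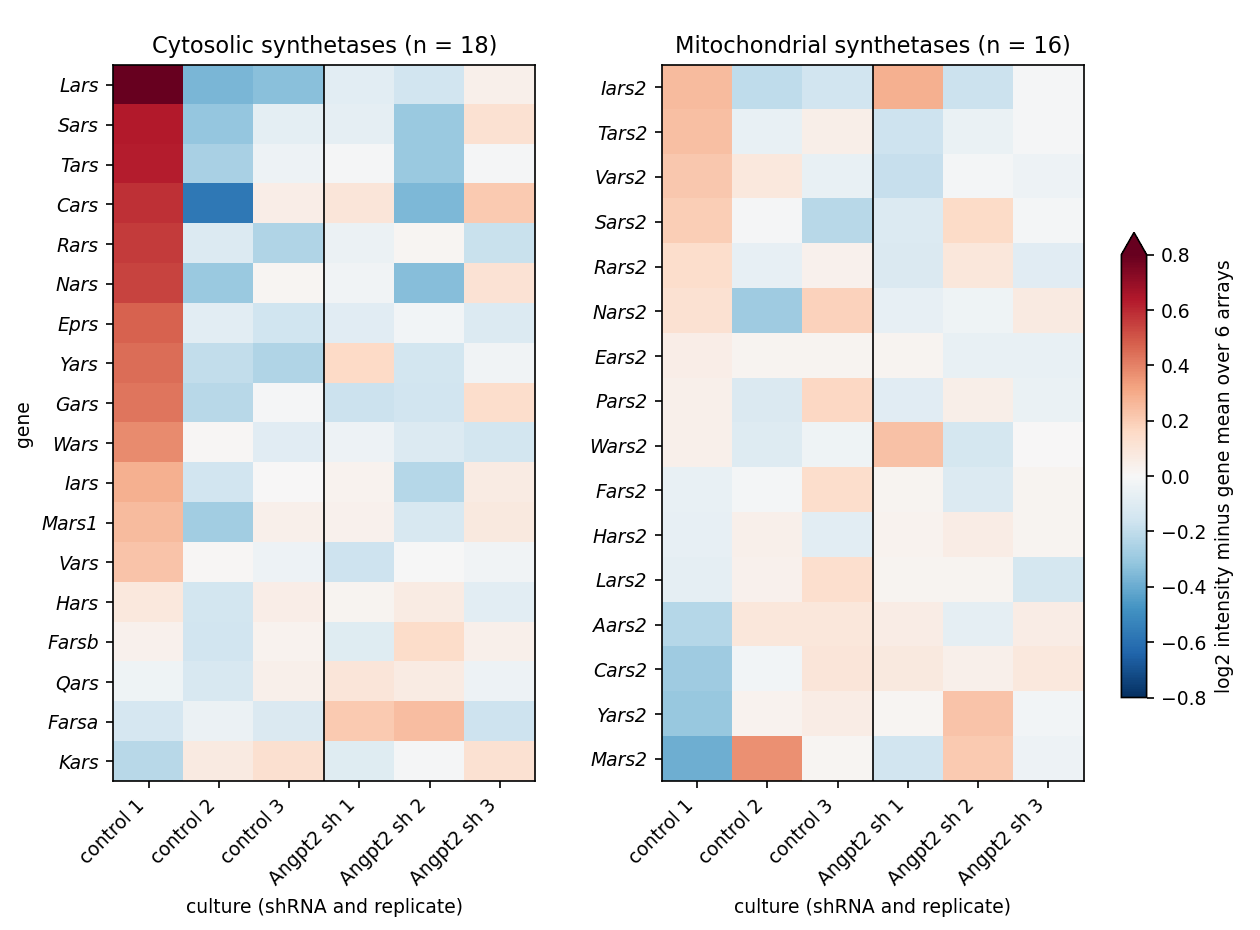
Log2 intensity of each synthetase gene minus its own mean over the 6 arrays (colour), for 18 cytosolic (left) and 16 mitochondrial genes (right), with 1 column per culture and genes ordered by control replicate 1. In the first column 15 of 18 cytosolic and 9 of 16 mitochondrial genes are above their own mean.

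Lars, the leucyl-tRNA synthetase, varied most. Its intensities were 1483, 618 and 630.3 in control cultures 1, 2 and 3 and 749.6, 714 and 819.5 in silenced cultures 1, 2 and 3. Control replicate 1 was 2.11-fold above the geometric mean of the other 5 arrays, which ran from 618 to 819.5. Sars (seryl) also had silenced replicates 3 and 1 next below control replicate 1, with 3224, 1672 and 1962 in control cultures 1, 2 and 3 and 1976, 1686 and 2254 in silenced cultures 1, 2 and 3. Tars, the threonyl enzyme, had 2563, 1384 and 1612 in the controls and 1646, 1352 and 1647 in the silenced cells. In both genes the replicate 2 cultures of the groups were the 2 lowest, and control replicate 1 was 1.7-fold and 1.68-fold above the other 5.

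Cars (cysteinyl) had intensities of 1049.7, 470.1 and 726 in control cultures 1, 2 and 3 and 747, 545 and 808 in silenced cultures 1, 2 and 3. It was 1.63-fold higher on control replicate 1, and the other 5 cultures also differed, from 470.1 to 808. Nars (asparaginyl) read 3287, 1839 and 2283 in the controls and 2221, 1789 and 2451 in the silenced cells. Rars (arginyl), a subunit of the multisynthetase complex, read 2827, 1778 and 1626 in the controls and 1857, 1940.1 and 1699 in the silenced cells. Nars spread over the other cultures with both replicate 2 arrays lowest, whereas Rars was flat outside control replicate 1. The 6 genes named so far were the cytosolic members with the largest standard deviation over the arrays. All 6 were past 1.5-fold on control replicate 1, an array whose values enter that standard deviation, so the choice favours such genes.

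Gars (glycyl), with the brightest cytosolic signal, had intensities of 5217, 3323 and 3860.5 in control cultures 1, 2 and 3 and 3443, 3492 and 4275 in silenced cultures 1, 2 and 3. Wars (tryptophanyl), also known as an interferon-induced gene, had 2176, 1687 and 1574 in the controls and 1630.2, 1556 and 1510.3 in the silenced cells. Their control replicate 1 values were 1.42-fold and 1.37-fold above the other 5. Eprs, Yars, Iars and Mars1, the methionyl enzyme, were highest on the same array, at 0.57, 0.54, 0.34 and 0.30 on the log2 scale above the mean of the others. Vars (valyl) was at 0.27 and Hars (histidyl) at 0.10, with control replicate 1 again the highest array.

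The other 4 cytosolic genes did not peak in that culture. Farsa, which encodes the catalytic subunit of phenylalanyl-tRNA synthetase, had 241, 256 and 244 in the controls and 306, 314 and 235 in the silenced cells. Its highest arrays were silenced replicates 2 and 1. Its partner subunit gene Farsb was at 0.04 on control replicate 1 relative to the other 5, Qars (glutaminyl) at -0.04 and Kars (lysyl) at -0.26. Kars had its lowest intensity there, 1498 against 1633 to 1909 on the other arrays.

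**Figure D2:**
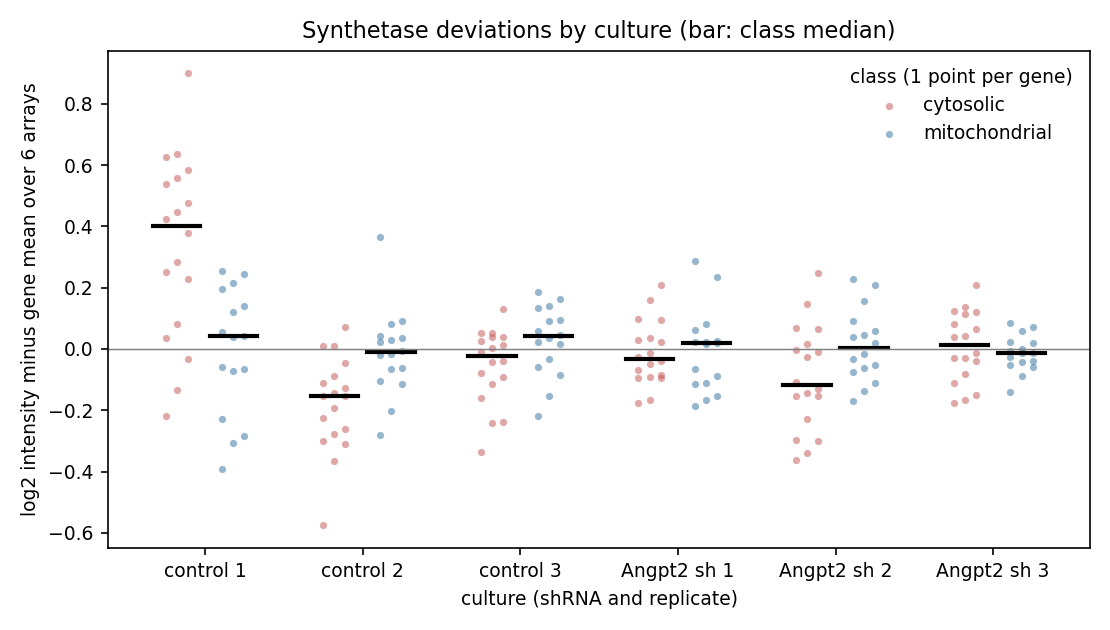
Deviation of each gene's log2 intensity from its mean over the 6 arrays, by culture, with 1 point per gene and a bar at the class median. The cytosolic bar is at 0.40 on control replicate 1 and within -0.15 to 0.01 elsewhere, and the mitochondrial bars lie between -0.01 and 0.04.

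Mitochondrial synthetases went both ways in the same culture, with 9 of 16 above the mean of the other 5 arrays and a median of 0.05. Mars2, the mitochondrial methionyl enzyme, spread most, with 156, 264 and 207 in control cultures 1, 2 and 3 and 184, 236 and 199 in silenced cultures 1, 2 and 3. Control replicate 1 was its lowest array and control replicate 2 its highest. Yars2, the tyrosyl enzyme, had 285, 359 and 367 in the controls and 356, 412 and 346 in the silenced cells. Cars2 (cysteinyl) had 203, 243 and 264 in the controls and 261, 254 and 262 in the silenced cells. Both were lowest on control replicate 1, at -0.37 and -0.34 relative to the other 5, and Aars2 (alanyl) was at -0.28.

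Iars2 (isoleucyl), with the brightest mitochondrial signal, had 710.4, 517 and 535 in control cultures 1, 2 and 3 and 726, 529 and 590.4 in silenced cultures 1, 2 and 3. It was high in the replicate 1 culture of both groups. Sars2 (seryl) read 279, 243 and 209 in the controls and 226, 272 and 242 in the silenced cells, and Nars2 (asparaginyl) read 202, 153 and 212 in the controls and 178, 182 and 196 in the silenced cells. Sars2 was highest on control replicate 1, whereas Nars2 was highest on control replicate 3 and lowest on control replicate 2. Tars2 (threonyl) and Vars2 (valyl) were highest on control replicate 1, at 0.29 and 0.26 above the mean of the other 5. Rars2 (arginyl) and Ears2 (glutamyl) were also highest there, at 0.17 and 0.07. Wars2, Pars2, Fars2, Hars2 and Lars2, for tryptophan, proline, phenylalanine, histidine and leucine, lay between -0.09 and 0.05. Pars2, with the dimmest signal, had 114, 102 and 123.5 in the controls and 104, 114 and 106 in the silenced cells, and a low signal cannot be told from background here. Probes differ in brightness, so a brighter signal does not show that a gene has more RNA than another.

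Set against each other by amino acid, the cytosolic gene exceeded its mitochondrial counterpart on control replicate 1 in 14 of 15 pairs covering 14 amino acids. The quantity compared is control replicate 1 minus the mean of the other 5 arrays, and its median excess was 0.50, with a range from -0.09 to 1.17. The widest pair was Lars (1.08) with Lars2 (-0.09). Next came Cars (0.70) with Cars2 (-0.34) and Yars (0.54) with Yars2 (-0.37). In Iars with Iars2 and Vars with Vars2 the excess was 0.04 and 0.01, and Farsa lay below Fars2. Hars and Hars2, neighbours in RefSeq gene order, were at 0.10 and -0.08.

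**Figure D3:**
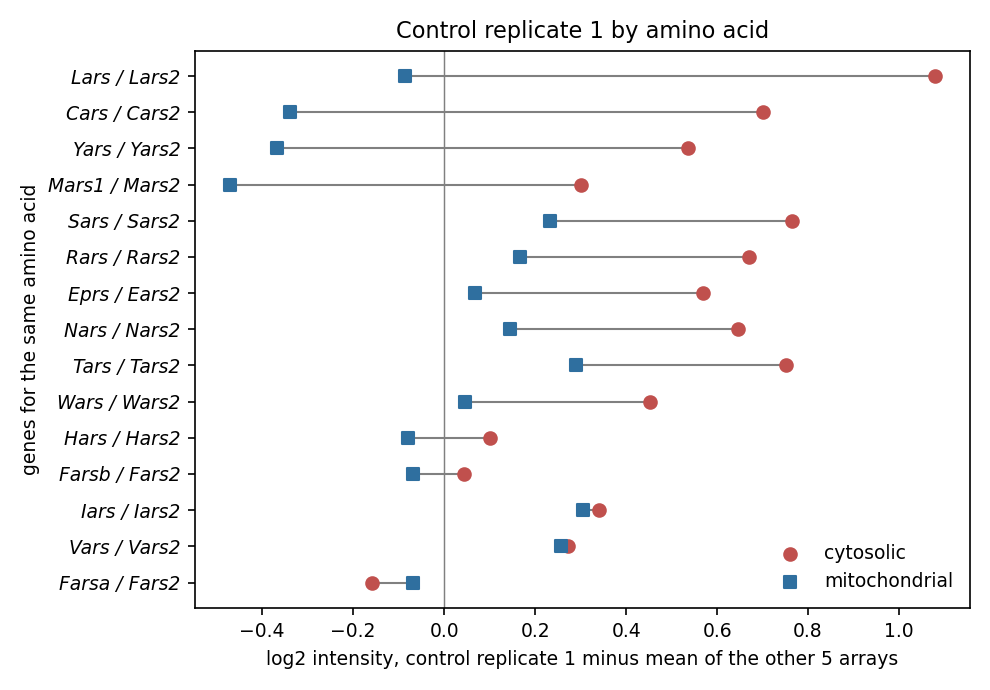
Control replicate 1 minus the mean of the other 5 arrays (log2 intensity, horizontal axis) for cytosolic (circles) and mitochondrial genes (squares) of the same amino acid, ordered by the gap between them. The circle is to the right of the square in 14 of 15 pairs, most widely for Lars with Lars2.

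Within the cytosolic class the genes on the list of textbook ATF4 targets, a list chosen with earlier results of these data known, were compared with the others. All 11 measured members of that list (Cars, Eprs, Gars, Iars, Lars, Mars1, Nars, Sars, Tars, Wars and Yars) were highest on control replicate 1, by a median of 0.57 over the mean of the other 5 arrays. The other 7 (Farsa, Farsb, Hars, Kars, Qars, Rars and Vars) had a median of 0.04, and 3 of them (Hars, Rars and Vars) were also highest there. Rars at 0.67 was the one past 1.5-fold, and Vars at 0.27 was close to Mars1 of the ATF4 list at 0.30. Against the other 2 controls alone the medians were 0.67 for the ATF4 list (all 11 higher) and 0.10 for the remainder (5 of 7 higher). Against the 3 silenced arrays they were 0.55 and 0.01 (0.005 before rounding). For all genes the corresponding medians were 0.01 and 0.02.

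Membership of the multisynthetase complex and the fold class of the enzyme separated the genes less widely. The lists were chosen with earlier results of these data known, so the widths of these splits are no test of one against another. The 7 measured synthetases of the complex had a median of 0.34 on control replicate 1 over the other 5 arrays, and the 11 free cytosolic genes 0.51. The complex holds both Lars (1.08) and Kars (-0.26). Class I enzymes, which share a Rossmann-fold catalytic domain, had a median of 0.50 (10 genes), and class II enzymes, built on a different fold, 0.31 (8 genes). Eprs is counted with class I, though it also holds a class II prolyl domain.

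Integrated stress genes stood high in the same culture. Of 22 genes on that list, 19 had their highest value on control replicate 1. The median deviation of the list there was 0.83 against -0.55 to 0.18 on the other 5 arrays. Psat1, Ddit4 and Stc2 had their highest value on a silenced array, and Stc2 was lowest on control replicate 1. Nupr1, a stress-induced chromatin protein gene, had 1589, 155 and 289 in control cultures 1, 2 and 3 and 407, 177 and 451 in silenced cultures 1, 2 and 3. Trib3, a pseudokinase gene induced by ATF4 and CHOP, had 1124, 149 and 299 in the controls and 329.96, 154 and 468 in the silenced cells. Chac1, which encodes a glutathione-degrading enzyme, had 1316, 194 and 428 in the controls and 558, 218 and 649.96 in the silenced cells. The cystine transporter gene Slc7a11 had 1184, 215 and 233 in the controls and 327, 166 and 308 in the silenced cells. Control replicate 1 was 5.88-fold, 4.43-fold, 3.59-fold and 4.88-fold above the other 5 arrays for Nupr1, Trib3, Chac1 and Slc7a11. The replicate 2 cultures of both groups were the lowest arrays of Nupr1, Trib3 and Chac1, as they were of Cars, Nars, Sars and Tars. Over the classes, 11 of 18 cytosolic and 6 of 16 mitochondrial synthetases had their minimum on a replicate 2 array, against 34.7% of all genes. Whether the levels of these stress genes are linked to the synthetase values was not tested.

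**Figure D4:**
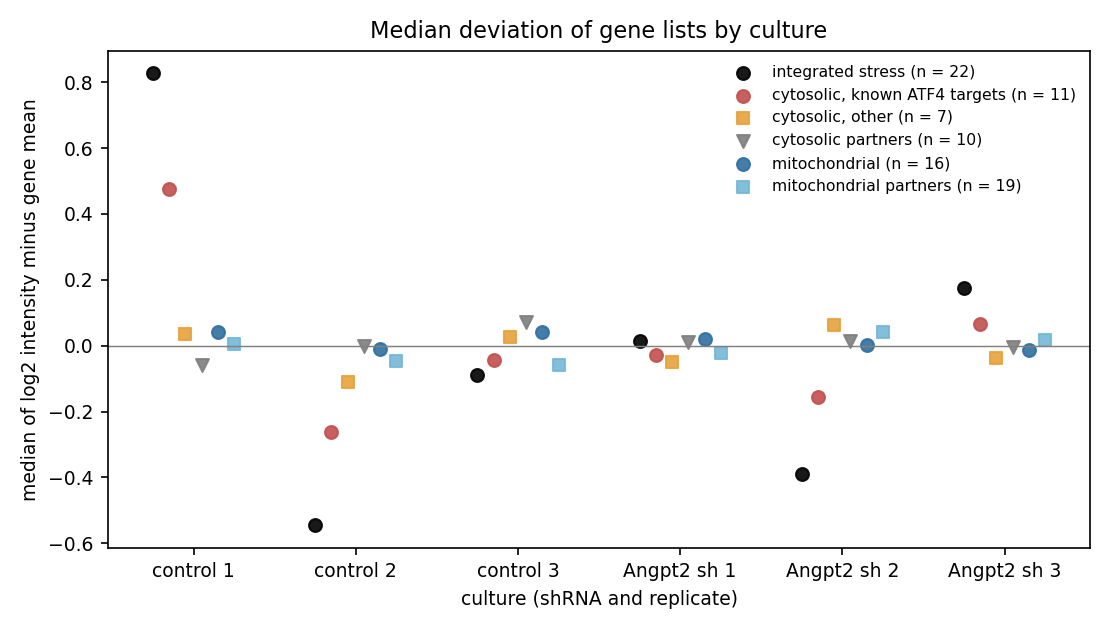
Median deviation of log2 intensity from each gene's mean over the 6 arrays, by culture, for 6 gene lists (marks, with the number of genes in the key). On control replicate 1 the integrated stress list is at 0.83 and the ATF4-target synthetases at 0.48, while the other 4 lists lie between -0.06 and 0.04.

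Partners of the cytosolic enzymes went both ways on control replicate 1, with 4 of 10 above the mean of the other 5 arrays and a median of -0.07. Xpot encodes exportin-t, which carries tRNAs out of the nucleus, and it had intensities of 1297, 695 and 711 in control cultures 1, 2 and 3 and 750.1, 636 and 746 in silenced cultures 1, 2 and 3. It was 1.83-fold higher on control replicate 1, the only gene of 10 measured partners past 1.5-fold there. The scaffold gene Aimp1 was at -0.12 relative to the other 5 and the scaffold gene Eef1e1 at -0.36, its lowest array. Eef1d, of the elongation factor complex, was also lowest there, at -0.20. The elongation factor genes Eef1a1 and Eef2 were at 0.13 and 0.03. Among 19 mitochondrial partners, the genes of mitochondrial tRNA processing and translation factors, 0 were past 1.5-fold and the median was 0.01 (0.005 before rounding). Hsd17b10, a subunit of mitochondrial RNase P, was the highest at 0.40.

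Silencing of Angpt2 did not come with a called difference in any synthetase gene. By limma, 0 of 34 members passed an adjusted p of 0.05 over all genes and 0 an unadjusted p of 0.05, with 1.52% of all genes higher and 2.24% lower at the latter. Cytosolic genes had negative log2 fold changes in 13 of 18 cases, with a median of -0.11, against 54.8% of all genes negative (45.2% positive) and a median of -0.01. Mitochondrial genes were negative in 8 of 16 with a median of -0.01 (-0.005 before rounding). Without control replicate 1 the cytosolic count turned to 15 of 18 positive with a median of 0.07, against 47% of all genes positive, and the mitochondrial count was 7 of 16 positive with a median of -0.04. All 11 ATF4-target synthetases were negative on the 6 arrays, and 10 of the 11 were positive without that culture. The arrays of both groups were separate for 1 member, Ears2, lower in silenced cells (129 to 136.8 against 136.9 to 140.1), where 5.48% of all genes were separate in that direction and 3.53% in the other.

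The largest cytosolic log2 fold changes were -0.21 (SE 0.20) for Tars, -0.20 (SE 0.12) for Wars, 0.19 (SE 0.12) for Farsa and -0.17 (SE 0.20) for Nars, each with limma adjusted p = 1.00 over all genes. On the log2 scale Tars was at 10.80 ± 0.46 in the controls and 10.59 ± 0.17 in the silenced cells (SD, n = 3 arrays each). Its 95% interval ran from -0.67 to 0.24, and without control replicate 1 its value was 0.05. Wars was at 10.81 ± 0.25 in the controls and 10.61 ± 0.06 in the silenced cells (SD, n = 3), with an interval from -0.47 to 0.08 and a value of -0.06 without that array. Lars was at -0.13 (SE 0.29) with an interval from -0.78 to 0.52, and at 0.28 without control replicate 1. For Cars, Sars, Rars and Gars the values were -0.04 (SE 0.26), -0.17 (SE 0.22), -0.14 (SE 0.18) and -0.13 (SE 0.16), and without that array 0.24, 0.11, 0.10 and 0.05. Nars was at 0.06 without it. Tars, Nars, Lars, Cars, Sars, Rars and Gars thus turned from negative to positive with 1 culture left out, and Wars and Farsa kept their sign. Without that culture the values of Tars (SE 0.12), Nars (SE 0.15), Sars (SE 0.135) and Gars (SE 0.12) were smaller than their SE. Those of Cars (SE 0.21) and Rars (SE 0.099) were close to it, and Lars had an SE of 0.095.

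The largest mitochondrial log2 fold changes were -0.16 (SE 0.10) for Vars2, -0.15 (SE 0.10) for Tars2, 0.15 (SE 0.12) for Yars2 and 0.14 (SE 0.11) for Cars2, each with limma adjusted p = 1.00. Vars2 read 289, 264 and 239 in the controls and 219, 246 and 242 in the silenced cells, and Tars2 read 486, 394 and 424 in the controls and 366, 396 and 409 in the silenced cells. In both the groups overlapped and control replicate 1 was the highest array. Without it Vars2 was at -0.09, Tars2 at -0.07, Yars2 at 0.03 and Cars2 at 0.03. Exact two-sided permutation tests of single genes, which cannot give a p below 0.1 with 3 against 3 arrays, gave 0.1 for Ears2 and at least 0.2 for the other 33 members.

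**Figure D5:**
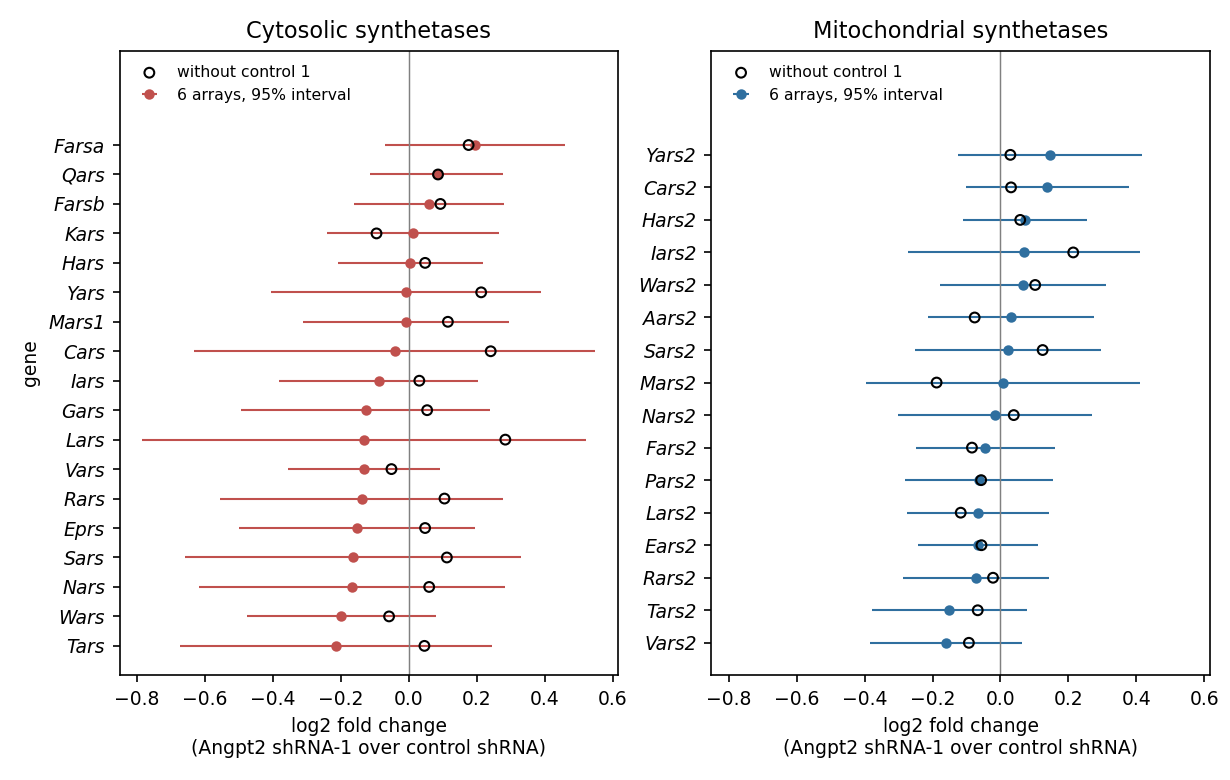
Log2 fold change of each synthetase gene, silenced relative to control (filled, with the 95% limma interval over 6 arrays), and the same without control replicate 1 (open). Every interval spans 0, and most cytosolic open circles lie to the right of their filled ones.

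Within replicate numbers, with 1 array per group in each, the cytosolic median difference between silenced and control cells was -0.41 for number 1, 0.07 for number 2 and 0.05 for number 3. The number of positive cytosolic genes was 3, 12 and 13 of 18. The mitochondrial median difference was 0.06, 0.01 and -0.06, with 9, 9 and 5 of 16 genes positive. The cytosolic difference thus turned sign between number 1 and the other 2.

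Partner genes gave the following differences between groups. Log2 fold changes were positive for 5 of 10 cytosolic partners (median 0.01), and Xpot was at -0.28 (SE 0.22), Aimp1 at 0.13 (SE 0.09) and the threonyl synthetase-like gene Tarsl2 at -0.10 (SE 0.09). Without control replicate 1 Xpot was at 0.01 (SE 0.10), Aimp1 at 0.11 and Tarsl2 at -0.16. Fold changes of the mitochondrial partners were positive for 14 of 19 (median 0.07). Without that array they were positive for 17 of 19 (median 0.06), against 47% of all genes. Mtif3, the mitochondrial initiation factor gene, read 143, 144 and 148 in control cultures 1, 2 and 3 and 168, 177 and 169 in silenced cultures 1, 2 and 3. Every silenced array was above every control array, as for 3 of the 19 mitochondrial partners (Mtif3, Mto1 and Trmt10c) and 3.53% of all genes. Mtif3 had a log2 fold change of 0.24 (SE 0.08), a 95% interval from 0.07 to 0.42 and limma adjusted p = 1.00 over all genes. Trmt10c, of mitochondrial RNase P, was at 0.18 (SE 0.12) and Elac2, which trims the 3′ ends of tRNAs, at -0.17 (SE 0.09). Without control replicate 1 Mtif3, Trmt10c and Elac2 were at 0.23, 0.165 and -0.20. No partner passed the adjusted threshold.

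Other promoter motifs were found in both classes. The NRF1 motif, of a factor known for nuclear genes of mitochondria, occurred in 3 of 11 cytosolic (Farsb, Kars and Tars) and 2 of 14 mitochondrial members (Iars2 and Mars2), against 4.6% of all windows. The E-box CACGTG occurred in 3 of 11 (Farsb, Iars and Tars) and 1 of 14 (Ears2), against 7.15%, and CCAAT in 6 of 11 and 6 of 14, against 37.4%. All were searched on both strands, and CACGTG reads the same on each. Members are again counted by gene and the background by window. The ATF4 core occurred in 6 of 20 integrated stress genes with a window, Asns, Atf3, Chac1, Nupr1, Slc7a11 and Trib3.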

How the data were processed

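RNA (100 ng per culture, per the labels) was labelled with biotin and hybridised to 1 array per culture. The authors deposited 1 normalized intensity for each transcript cluster, not log transformed. Background correction, summarization and normalization are not given in the sources used here, and there are no detection calls. Of 41345 clusters, 23521 had 1 gene symbol in the platform annotation and a value on every array, which left 22180 genes at 1 cluster each. Aars, whose cluster is shared with Exosc6, and Dars are not analysed here. Of the fixed lists Aimp2, Ptrh2 and Trnt1 were not matched.

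Log2 of the deposited intensities was taken here and tested two-sided in limma 3.58.1 under R 4.3.3 (lmFit, then eBayes), without a block, and p-values were adjusted over all genes (Benjamini-Hochberg). The fit was tested on simulated data. The members and lists were chosen with earlier results of these data known. Named genes were, in each class, the 6 with the largest spread over the arrays, the 4 with the largest fold change and the brightest and dimmest, with 3 partners per list by fold change and 4 stress genes by spread. Others named were chosen after their values were seen. Same-numbered arrays deviated together (correlations of 0.13, 0.21 and 0.14 across genes), so the numbers were treated as pairs in an alternative fit. Promoter windows are from a table made from RefSeq (GRCm38.p6), which is not complete: windows of Cars, Hars, Lars, Nars, Rars, Vars, Wars, Hars2 and Pars2 were not used here. Precision is limited by how few arrays there are. The limma p-values set a group difference against the spread between cultures within the groups, moderated over all genes.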

Additional observations from a re-analysis of the deposited data

How the results depend on the processing

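No member was called in any of the 17 fits, in which the lowest adjusted p of a member was 0.853. The contrast between the classes on control replicate 1, 0.36, stayed between 0.34 and 0.38 with quantile normalization, median centring, the mean of all clusters, a pseudocount of 16 and class means. A replicate block gave 2 called genes in all and 0 members, and changed no member's call. The count of genes called was 1 with trend and robust options, 1 with both replicate 1 arrays left out (an alternative chosen after seeing the data), and 0 to 2 over the fits without 1 array.

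The group difference of the classes changed with single arrays. Leaving out 1 array at a time, the number of positive cytosolic genes ran from 3 to 15 (5 on all arrays), the mitochondrial median from -0.039 to 0.012, and the difference between class medians from -0.17 to 0.11 (-0.10 on all arrays). That difference was 0.11 when control replicate 1 was dropped, -0.006 for silenced replicate 2 and -0.008 with array weights. The cytosolic count was 15 when control replicate 1 was dropped, 3 for control replicate 2, 8 for silenced replicate 2, and 13 with both replicate 1 arrays left out. With array weights the mitochondrial median was -0.033.

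Over the same fits log2 fold changes ran from -0.35 to 0.28 for Lars, -0.34 to 0.24 for Cars, -0.36 to 0.11 for Sars, -0.40 to 0.046 for Tars, -0.36 to 0.06 for Nars, -0.29 to 0.105 for Rars, -0.27 to 0.054 for Gars, -0.19 to 0.19 for Mars2, -0.057 to 0.21 for Iars2, -0.16 to 0.072 for Nars2, -0.083 to 0.12 for Sars2, -0.14 to 0.003 for Pars2 and -0.44 to 0.011 for Xpot. With both replicate 1 arrays left out Lars was at 0.29, Cars 0.18, Sars 0.11, Nars 0.031, Rars 0.094, Gars 0.11, Mars2 -0.11 and Nars2 0.067. Tars and Xpot, positive without control replicate 1 alone, were at -0.002 and -0.03 in that fit. With array weights Mars2 was at -0.014. With the mean of all clusters Nars2 was at 0.17 and Aimp1 at -0.03, since each has a second, dimmer cluster.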
